A study of Mus musculus with 4 samples.

Results

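The collagen chain genes were followed in the mouse diaphragm, the muscle that drives breathing, by comparing tissue that holds the neuromuscular synapses with tissue that does not. The members were all probe sets whose single platform symbol reads Col, a number, the letter a and a number. There were 82 such probe sets for 42 genes, among 45101 probe sets for 18193 genes on the array. Total RNA of the left hemi-diaphragm was hybridised to 4 arrays, 2 per region. The labels give no strain, age, sex or treatment of the mice, and name no line or allele that the groups carry. The titles end in 1 or 2 in each region, which is used here as an array number. Whether the arrays of a region are separate animals is not stated, and the spread behind the p-values may be technical. All 8 skeletal muscle markers, among them Ckm and Acta1, were measured in both regions.

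Collagens are secreted or membrane-bound proteins in which 3 chains wind into a triple helix. Fibrillar collagens form the cables of the connective tissue around muscle fibres, and the type IV chains form the sheet of the basement membrane that coats each fibre. FACIT collagens (fibril-associated collagens with interrupted triple helices) sit on fibrils or next to basement membranes, and membrane-spanning collagens are anchored in the plasma membrane of the cell that makes them. At the neuromuscular synapse the basement membrane carries a special set of type IV chains, and collagens XIII and XXV are known from the attachment of motor nerve to muscle.

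No collagen gene passed the test between regions. Values are log2 intensities, with intensities under the 20th percentile of all values raised to that floor, a log2 value of 7.31, and between 18.7% and 21.3% of an array's probe sets sat there. By limma, a linear model that borrows information on the spread across probe sets, 0 of the 32 collagen genes measured above the filter on low values had an adjusted p under 0.05, against 0.0162% of all 12363 genes measured. At an unadjusted p under 0.05 there were 2 higher in the synaptic region, Col20a1 and Col23a1, against 0.825% of all genes, and 0 lower, against 0.372%. A test without moderation of the variance also passed 0, with 3 higher unadjusted, Col4a3, Col23a1 and Col25a1, and 0 lower, against 1.51% and 1.33% of all genes in that test. With the array number as a block limma again passed 0, with 5 higher at an unadjusted p under 0.05, Col8a1, Col11a1, Col20a1, Col23a1 and Col27a1, and 2 lower, Col11a2 and Col14a1, against 3.17% and 2.64% of all genes. The arrays of the regions did not overlap for 8 of the 32 genes (25.0%), all 8 with both synaptic arrays on top, against 10.6% of all genes in that direction. There were 0 of 32 with both synaptic arrays below both others, against 9.85% of all genes. The 8 genes were Col4a3, Col4a4, Col11a1, Col20a1, Col23a1, Col25a1, Col26a1 and Col27a1. The other 24 measured genes overlapped between regions. The median log2 difference, synaptic minus non-synaptic, was 0.02 over the 32 collagen genes and 0.00 over all genes. The remaining 10 collagen genes lay below the filter, which asks for a mean log2 intensity of at least 8.87, and have no test. With 2 arrays a region these counts describe these arrays only.

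**Figure D1:**
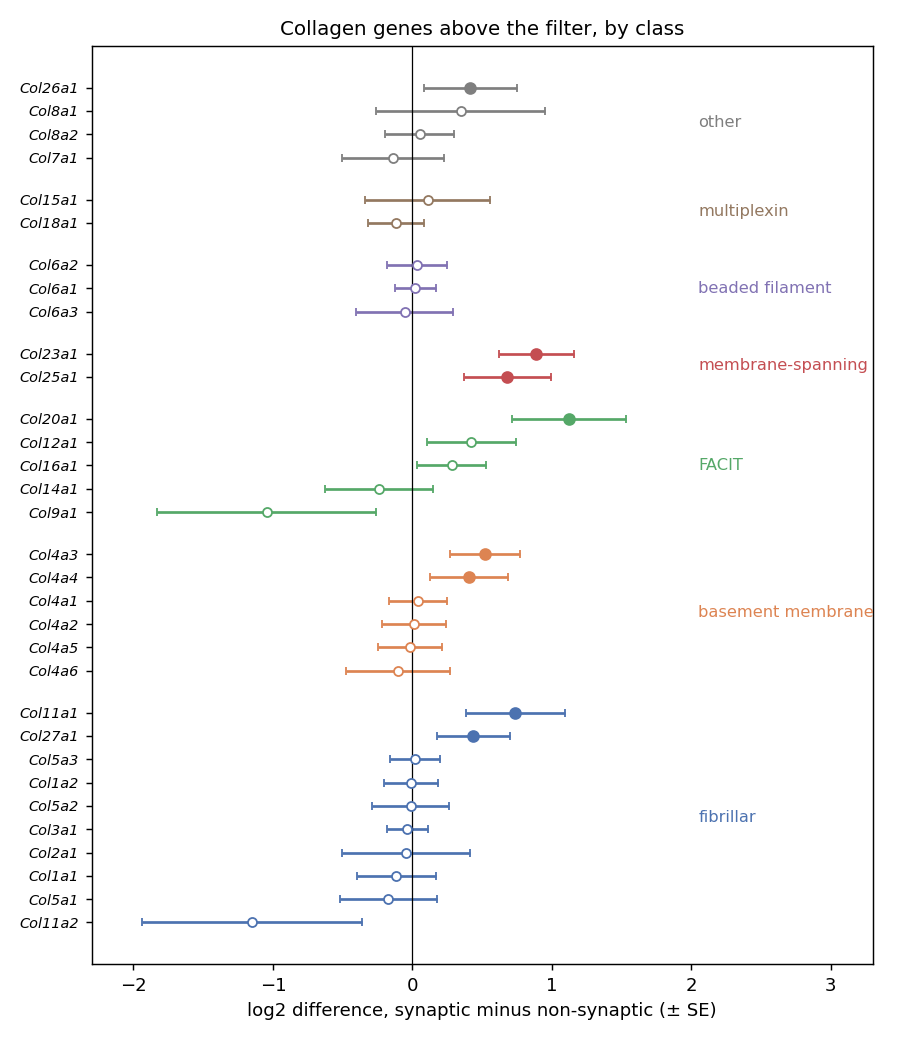
Log2 difference (synaptic minus non-synaptic, ± standard error of the moderated fit, n = 2 arrays per region) of the 32 measured collagen genes, grouped by class on the vertical axis; filled points mark genes whose arrays did not overlap between regions. The 8 filled points all lie to the right of 0, and most fibrillar, beaded filament and multiplexin genes lie close to 0.

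The basement membrane class was measured in full, and its chains are given here by the pairs in which their genes lie. The 6 type IV genes are arranged head to head in the genome, Col4a1 with Col4a2, Col4a3 with Col4a4 and Col4a5 with Col4a6. In the sequence table used here the start sites of Col4a1 and Col4a2 lie 21 bases apart and those of Col4a5 and Col4a6 1343 bases apart. Col4a1, a chain of the network found in most basement membranes, read log2 intensities of 16.31 and 16.50 on the synaptic arrays and 16.12 and 16.61 on the non-synaptic arrays. The regions overlapped, with a difference of 0.04 ± 0.21 (SE) and a 95% interval from -0.49 to 0.57. Col4a2, its partner in the same network, read 14.85 and 15.25 against 14.83 and 15.25, a difference of 0.01 ± 0.23. For this pair the array number separated the values and the region did not.

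Col4a3 and Col4a4 encode chains of the network that is restricted to certain sites, among them the kidney filter and the synaptic part of the muscle fibre's basement membrane. Col4a3 read 10.32 and 10.51 on the synaptic arrays and 9.91 and 9.88 on the others, and the regions did not overlap. Its difference was 0.52 ± 0.25 (SE, n = 2, limma unadjusted p = 0.0929, adjusted p = 0.9999). The second probe set of Col4a3 read 9.06 and 10.46 against 10.05 and 9.06, overlapped between regions and gave 0.20. Col4a4 read 10.90 and 10.51 against 10.47 and 10.13, again apart but by a narrow margin, with a difference of 0.41 ± 0.28 (limma adjusted p = 0.9999). It was 0.22 without synaptic array 1 and 0.24 without non-synaptic array 2. Both other probe sets of Col4a4 were apart in the same direction, at 0.62 and, below the filter, 0.92. In all, 4 of the 5 probe sets of this pair had both synaptic arrays above both others, though probe sets of 1 gene are not separate measures. Over all genes, each read from 1 probe set, the share in that direction was 10.6%. Of all 82 collagen probe sets, 23.2% were apart in that direction and 3.66% in the other. These shares include 28 probe sets below the filter and several of the same gene, so the 10.6% over genes is not their match.

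Col4a5 contributes to both restricted networks and Col4a6 to one of them. Col4a5 read 11.96 and 12.34 on the synaptic arrays and 12.07 and 12.26 on the non-synaptic arrays, a difference of -0.02 ± 0.23. Col4a6 read 9.69 and 10.59 against 10.31 and 10.18, a difference of -0.10 ± 0.37. The regions overlapped for both genes and on both probe sets of each. The interval of Col4a6, from -1.05 to 0.84, leaves room for a difference larger than those of Col4a3 and Col4a4. Whether the pairs differ from each other in their region difference was not tested. The class had a median of 0.03, with 4 of 6 differences above 0.

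Of the 4 membrane-spanning genes on the array, only 2 were measured. Both had synaptic arrays above non-synaptic ones, against 10.6% of all genes measured. Col23a1 encodes collagen XXIII, a transmembrane collagen that can be shed from the cell surface. Its log2 intensities were 10.65 and 10.46 on the synaptic arrays and 9.81 and 9.53 on the non-synaptic arrays, which is 1.85-fold on the linear scale. The difference was 0.89 ± 0.27 (limma unadjusted p = 0.0204, adjusted p = 0.9999, 95% interval 0.20 to 1.57). Its other probe sets gave 0.87, with the arrays apart, and 0.69, with the arrays overlapping. Within array number 1 the difference was 0.84 and within number 2 it was 0.94.

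Col25a1 encodes collagen XXV, which developing muscle needs in order to be innervated by motor axons. It read 9.83 and 9.62 against 8.94 and 9.15, with no overlap and a difference of 0.68 ± 0.31 (limma unadjusted p = 0.0796, adjusted p = 0.9999). Its second probe set lay below the filter, at 8.05 and 8.85 against 7.40 and 8.06, and differed by 0.72 with overlapping arrays. Col13a1, the synaptic collagen whose loss causes a congenital myasthenic syndrome, was near the lowest measurable level. Its only probe set was at the floor on synaptic array 2 and non-synaptic array 1, with 7.71 and 8.06 on the others. Neither region was the higher one for Col13a1 at this signal. Col17a1, the collagen of hemidesmosomes in skin, read 8.75 and 8.12 against 7.55 and 8.64, below the filter and overlapping.

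**Figure D2:**
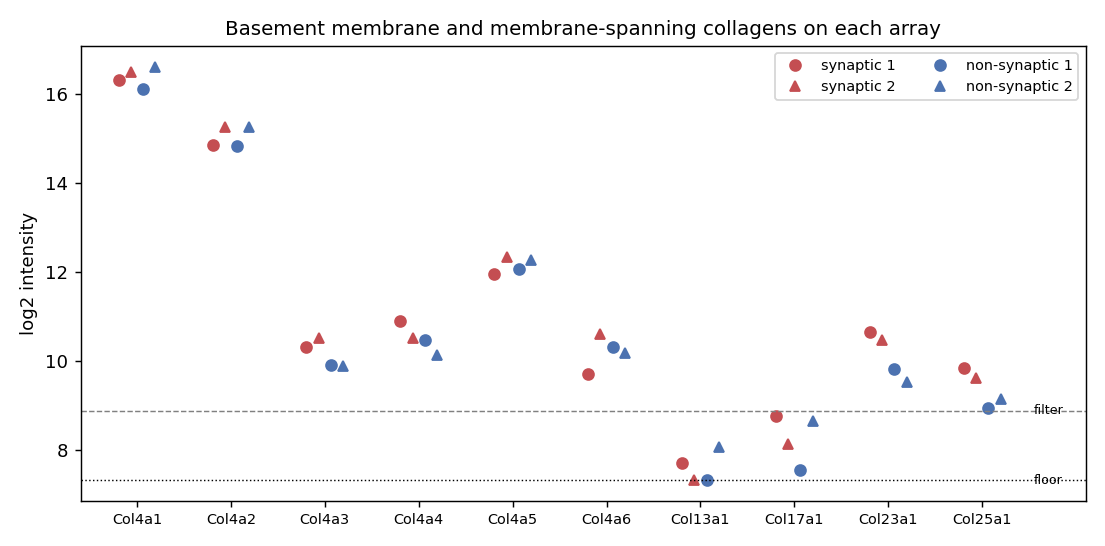
Log2 intensity on each array (vertical axis) of the 6 basement membrane and 4 membrane-spanning collagen genes; circles are array number 1 and triangles number 2, red synaptic and blue non-synaptic, with the floor at 7.31 and the filter on the mean at 8.87. Red lies above blue for Col4a3, Col4a4, Col23a1 and Col25a1, whereas circles lie below triangles in both regions for Col4a1, Col4a2 and Col4a5.

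The FACIT class held the largest positive difference among the measured collagen genes. Col20a1 encodes collagen XX. Its representative probe set, the one with the highest mean, read 11.46 and 11.14 on the synaptic arrays and 10.71 and 9.64 on the non-synaptic arrays. The difference was 1.12 ± 0.41 (SE, n = 2, limma unadjusted p = 0.0391, adjusted p = 0.9999). It was 0.59 when non-synaptic array 2 was left out and 1.66 when non-synaptic array 1 was, and 0.97 and 1.28 when synaptic array 1 or 2 was left out. The arrays were apart on all 4 probe sets of Col20a1, though probe sets of 1 gene are not separate measures. Over all genes, each read from 1 probe set, 10.6% were apart and higher. A second probe set of Col20a1 read 11.71 and 11.31 against 10.09 and 9.04, a difference of 1.94 ± 0.41. Another read 10.75 and 10.58 against 8.41 and 9.08, a difference of 1.92 ± 0.35. On the fourth both non-synaptic arrays were at the floor while the synaptic arrays read 9.66 and 9.22, so that the synaptic region was at least 4.37-fold higher. That bound was 1.48-fold with the floor raised to an intensity of 469. With the mean of all 4 probe sets in place of the representative one the difference was 1.78 (limma adjusted p = 0.482). The difference was 0.75 within array number 1 and 1.5 within number 2.

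Col19a1, which is named because of its values, encodes collagen XIX, a FACIT chain known from basement membrane zones and from developing muscle. All 3 of its probe sets lay below the filter, so it is not among the 32 genes counted. On the probe set with the highest mean it read 9.07 and 9.45 on the synaptic arrays, against 1 non-synaptic array at the floor and the other at 7.68, at least 3.40-fold. On the next it read 8.88 and 9.71 with both non-synaptic arrays at the floor, at least 3.96-fold. On the last it read 8.30 and 8.25 with both at the floor again, at least 1.95-fold. Both synaptic arrays thus lay above both others on all 3 probe sets, which are not separate measures of the gene. When no filter was set the limma fit gave an unadjusted p of 0.00671 and an adjusted p of 0.749. That unadjusted p is no independent support, since Col19a1 was picked by these same values. The floor also narrows the spread between its non-synaptic arrays. With the floor raised to 469 the bounds were 1.31-fold, 1.34-fold and, for the last, with no array above it, none. A probe set with both non-synaptic arrays at the floor and both synaptic arrays above it was found 4 times among the 82 (4.88%), 2 of Col19a1 and 1 each of Col20a1 and Col5a3, against 1.03% of all 45037 probe sets. The reverse pattern was found in 0 of the 82, against 0.842% of all.

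**Figure D3:**
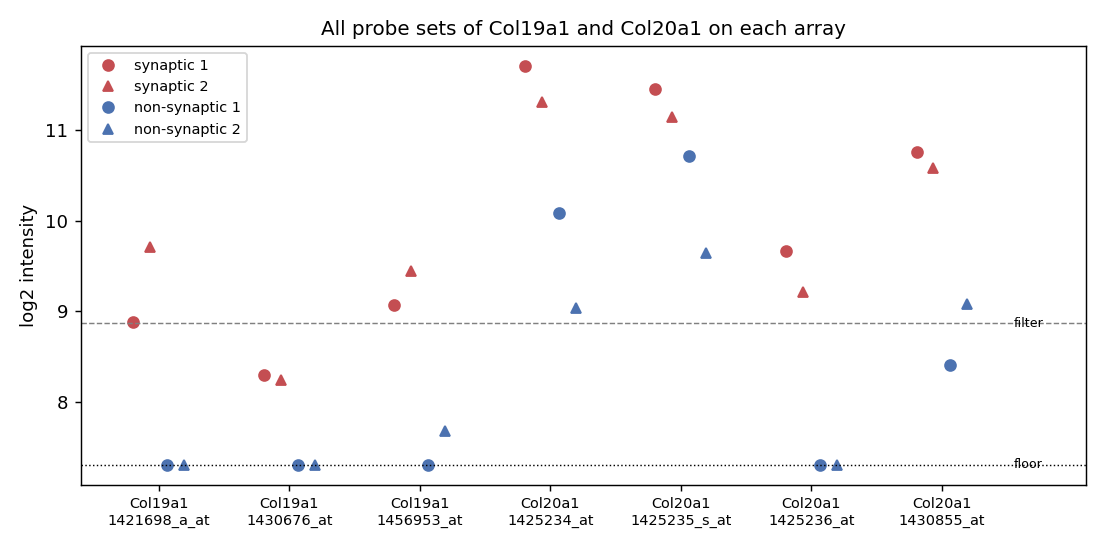
Log2 intensity on each array (vertical axis) for every probe set of Col19a1 and Col20a1; red is synaptic, blue non-synaptic, circles array number 1 and triangles number 2, with dotted and dashed lines at the floor and the filter. Red lies above blue in all 7 columns, and 5 of the 6 blue points of Col19a1 sit on the floor.

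The other FACIT genes overlapped between regions. Col12a1, whose product coats fibrils of tendon and muscle sheath, read 9.99 and 10.53 against 9.67 and 10.00, a difference of 0.42 ± 0.32, and its other measured probe set gave -0.05. Leaving out 1 array moved the difference of Col12a1 between 0.16, without synaptic array 2, and 0.69, without synaptic array 1. Col16a1 differed by 0.28 ± 0.25, with 0.04 when non-synaptic array 2 was left out and 0.52 when non-synaptic array 1 was. Col14a1, a fibril-coating chain of dense connective tissue, read 13.18 and 14.04 against 13.47 and 14.23, a difference of -0.24 ± 0.39. A further probe set of Col14a1, below the filter, was at the floor on both arrays with number 1 and at 10.24 and 10.45 on both with number 2. Col9a1, a cartilage chain, read 7.37 and 9.65 against 9.48 and 9.63. Its difference of -1.05 ± 0.79 rested on synaptic array 1, without which it was 0.10. Col22a1, the collagen of the junction between muscle and tendon, was below the filter on all 3 probe sets, with the highest at 8.72 and 8.57 against 9.21 and 7.42, and so overlapping. Col9a2 was at the floor on all 4 arrays, and the 3 probe sets of Col9a3 were at the floor but for synaptic array 1 on one of them, at 7.46. The class median was 0.28 over the 5 genes measured.

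The 250 bases before the start site are given 5′ to 3′ for Col19a1, Col20a1, Col23a1 and Col25a1, the FACIT and membrane-spanning genes whose synaptic arrays lay above both others. They come from RefSeq on build GRCm38.p6, which gives other transcripts of these genes that begin further upstream. The same stretch of Chrne, the receptor subunit of the adult synapse, is shown for comparison because its promoter holds the N-box, a short element of synapse-specific transcription. Capitals mark the N-box CCGGAA and the E-box CANNTG, the site of myogenic factors, each searched on both strands, with no overlap between the motifs in these windows. The windows lie on the minus strand at chr11:70619195-70619444 for Chrne and chr1:24587438-24587687 for Col19a1. They lie on the plus strand at chr2:180986285-180986534 for Col20a1, chr11:51289670-51289919 for Col23a1 and chr3:130180595-130180844 for Col25a1.
Chrne: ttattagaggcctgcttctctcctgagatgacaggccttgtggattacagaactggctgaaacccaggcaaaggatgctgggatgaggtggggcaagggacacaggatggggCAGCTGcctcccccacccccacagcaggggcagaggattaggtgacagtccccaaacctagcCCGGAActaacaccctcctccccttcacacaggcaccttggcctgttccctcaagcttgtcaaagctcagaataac
Col19a1: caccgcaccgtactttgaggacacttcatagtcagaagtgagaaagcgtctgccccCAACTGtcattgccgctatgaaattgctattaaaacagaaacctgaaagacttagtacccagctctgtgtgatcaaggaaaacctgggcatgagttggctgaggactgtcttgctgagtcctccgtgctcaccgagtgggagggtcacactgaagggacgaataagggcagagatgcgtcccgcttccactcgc
Col20a1: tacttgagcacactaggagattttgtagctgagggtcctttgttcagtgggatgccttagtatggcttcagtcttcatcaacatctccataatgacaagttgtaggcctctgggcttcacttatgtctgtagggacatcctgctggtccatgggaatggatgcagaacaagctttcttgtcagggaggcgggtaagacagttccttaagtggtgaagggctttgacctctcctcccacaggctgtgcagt
Col23a1: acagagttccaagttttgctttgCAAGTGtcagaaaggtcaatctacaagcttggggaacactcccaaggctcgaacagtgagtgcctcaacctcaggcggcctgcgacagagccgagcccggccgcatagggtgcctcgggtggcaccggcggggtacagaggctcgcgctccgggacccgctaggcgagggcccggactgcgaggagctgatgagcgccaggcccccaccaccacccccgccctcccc
Col25a1: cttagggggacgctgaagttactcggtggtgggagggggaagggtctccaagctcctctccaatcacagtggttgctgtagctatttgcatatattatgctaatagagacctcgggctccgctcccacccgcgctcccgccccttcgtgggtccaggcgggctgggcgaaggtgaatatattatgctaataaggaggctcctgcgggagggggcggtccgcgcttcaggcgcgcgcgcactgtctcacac

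Chrne held 1 N-box, starting 76 bases before the start site, and 1 E-box. The windows of Col19a1 and Col23a1 held 1 E-box each, and those of Col20a1 and Col25a1 had no match to either motif. Of the 42 collagen genes 33 had a window in the table, some with several, and 0 of their 36 windows held an N-box, against 12.0% of all 32851 windows. An E-box stood in 18 of the 36, against 66.2% of all. A missing match says only that these letters are not in this window, and a match is not a site of binding.

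The fibrillar class contained the chains of the connective tissue cables, and most of these lay close to 0. Of 11 genes 10 were measured, with a median of -0.02, 3 above 0 and 7 below. Col1a2, a chain of collagen I, the main fibril of tendon and muscle sheath, read 16.09 and 16.39 on the synaptic arrays and 16.08 and 16.41 on the non-synaptic arrays. Its difference was -0.01 ± 0.19, with a 95% interval from -0.50 to 0.48. Col3a1, the chain of the finer reticular fibrils, read 17.06 and 17.14 against 17.01 and 17.26, a difference of -0.04 ± 0.15. Both genes overlapped on these probe sets, and in both regions array 2 was above array 1. Another measured probe set of Col1a2, at a much lower signal, read 9.16 and 8.87 against 9.18 and 9.29. There the regions were apart with the synaptic one lower, at -0.22 ± 0.34. Col1a1, Col2a1, Col5a1, Col5a2 and Col5a3 gave differences from -0.17 to 0.02, all overlapping. A second probe set of Col5a3 was at the floor on both non-synaptic arrays and at 8.67 and 8.05 on the synaptic ones, unlike the first, which differed by 0.02 at log2 values above 12.50.

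Of the minor fibrillar chains, Col11a1 and Col27a1 had regions apart. They were 2 of the 10 measured fibrillar genes, against 10.6% of all genes in that direction. Col11a1, a chain that regulates fibril width, read 10.12 and 9.98 against 9.67 and 8.95, a difference of 0.74 ± 0.36 (limma unadjusted p = 0.0919, adjusted p = 0.9999). It was 0.38 when non-synaptic array 2 was left out and 1.10 when non-synaptic array 1 was. Its second probe set, below the filter, gave 0.47 with overlapping arrays. Col27a1, a fibrillar chain known from cartilage, read 11.64 and 11.40 against 11.32 and 10.85, a difference of 0.44 ± 0.26, while its other probe set overlapped at 0.07. The difference of Col27a1 was 0.20 without non-synaptic array 2 and 0.67 without non-synaptic array 1. Col11a2 read 9.40 on synaptic array 1 and was at the floor on array 2, against 9.97 and 9.04, a difference of -1.15 ± 0.79. With synaptic array 2 left out it was -0.10. Col24a1 lay below the filter, at or near the floor on all arrays.

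The collagen VI genes, whose mutations cause muscular dystrophy and whose beaded filaments link the fibre to its surroundings, did not separate the regions. Col6a1 differed by 0.02 ± 0.15, Col6a2 by 0.03 ± 0.22 and Col6a3 by -0.05 ± 0.35. Col6a1 read 15.51 and 15.56 on the synaptic arrays and 15.44 and 15.59 on the non-synaptic arrays, with the narrowest interval of the class, from -0.35 to 0.39. Col6a4 and Col6a5 lay below the filter. On another probe set of Col6a4, also below it, the regions were apart with the synaptic one lower. It read 7.60 and the floor against 7.98 and 8.07, a difference of -0.57. The multiplexins of the basement membrane zone did not separate the regions either. Col15a1, known from the basement membranes of muscle fibres and capillaries, read 13.44 and 14.41 against 13.35 and 14.28, and Col18a1, the source of endostatin, differed by -0.12 ± 0.20. For Col15a1 the arrays of one region were 0.97 and 0.93 apart while the regions differed by 0.11.

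Among the remaining classes, Col26a1 had regions apart by a small margin, 9.76 and 9.52 against 9.004 and 9.45, a difference of 0.41 ± 0.33. It was 0.19 without non-synaptic array 1 and 0.64 without non-synaptic array 2. The second probe set of Col26a1, below the filter, was apart in the opposite direction, at -0.40. Col8a1, a network chain of vessels, differed by 0.35 ± 0.60, and read 11.55 and 12.96 against 11.32 and 12.50. Col8a2 differed by 0.05 ± 0.25 and Col7a1, of the anchoring fibrils of skin, by -0.14 ± 0.37. Col10a1, of growth plate cartilage, was at the floor on all arrays.

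Arrays of different regions with the same number lay closer to each other, over these genes, than arrays of one region did. The median absolute log2 difference over the 32 genes was 0.31 between the 2 synaptic arrays and 0.43 between the 2 non-synaptic arrays. Between regions it was 0.20 within number 1 and 0.18 within number 2. Over all genes it was 0.31 between the synaptic and 0.27 between the non-synaptic arrays. Between regions it was 0.17 and 0.14 over all genes, so the pattern was not particular to collagen genes. For 26 of the 32 genes (81.2%) the arrays of both regions moved the same way from number 1 to number 2, against 72.3% of all genes. In 16 of these 26 number 2 was the higher in both regions, among them Col1a2, Col3a1, Col4a1, Col4a2, Col15a1 and all 3 measured collagen VI genes. In the other 10 number 1 was the higher, among them Col4a4, Col20a1 and Col23a1. The labels do not say what the number stands for.

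**Figure D4:**
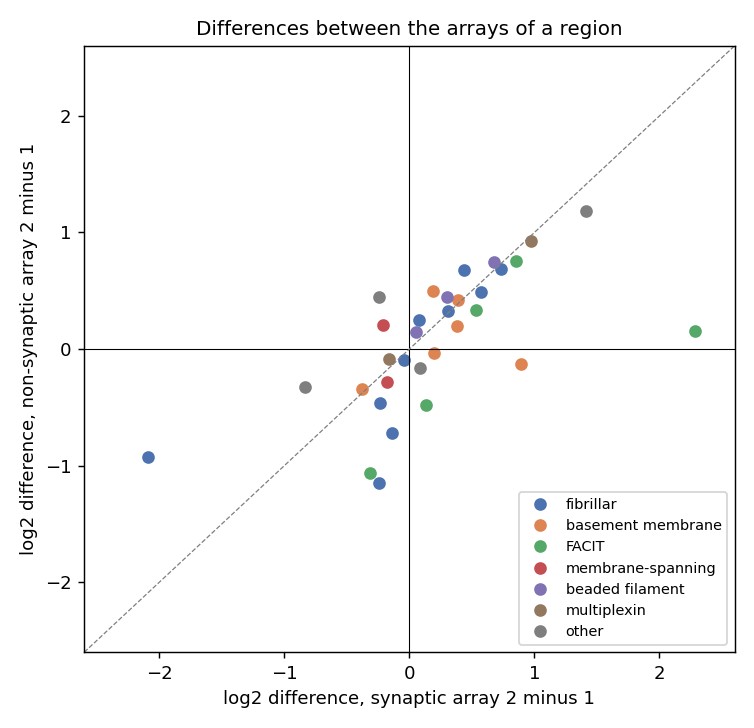
Each point is 1 of the 32 measured collagen genes, with the log2 difference between array 2 and array 1 of the synaptic region on the horizontal axis and the same for the non-synaptic region on the vertical axis, coloured by class; the dashed line marks equal differences. Of the 32 points, 26 lie in the upper right or lower left part.

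Genes that make, bind or organise collagen were read beside the chains. Of 23 measured genes of collagen biosynthesis and cross-linking, 0 passed by limma, against 0.0162% of all genes, and the median was -0.01. At an unadjusted limma p under 0.05 there were 0 higher and 1 lower, against 0.825% and 0.372% of all genes. The lower one was Pcolce2, an enhancer of the enzyme that trims procollagen, at -1.83 ± 0.62 (limma adjusted p = 0.9999). Synaptic array 1 was at the floor for Pcolce2, and without it the difference was -1.04. Adamts3, an enzyme that removes the other end of procollagen, differed by 0.79 ± 0.36 with the regions apart. In this list 4 genes were apart and higher and 1 apart and lower (17.4% and 4.35%), against 10.6% and 9.85% of all genes. Of 7 measured collagen receptors 0 passed, and their median was -0.15. At an unadjusted limma p under 0.05 there were 0 in either direction, against 0.825% and 0.372% of all genes. The receptors with the smallest p were Itga10, an integrin chain, at -0.52 ± 0.35, and Ddr2, a receptor kinase for fibrillar collagen, at -0.36 ± 0.36. Differences were below 0 for 6 of the 7, against 6009 of 12363 genes. Of the receptors 1, Itga10, was apart and lower (14.3%) and 0 apart and higher, against 9.85% and 10.6% of all genes. Of 7 proteoglycans of the fibril surface 0 passed, likewise with 0 at an unadjusted limma p under 0.05 and 0 apart in either direction. Their median was 0.20, with Ogn at 0.27 ± 0.21 and Dcn at 0.21 ± 0.17. Colq, the collagen tail that anchors acetylcholinesterase in the synaptic cleft, lay below the filter, at 8.37 and 9.06 on the synaptic arrays and 8.24 and 9.004 on the non-synaptic arrays. Its arrays followed the number, not the region.

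Markers of cells other than muscle fibres were read on the same arrays, and 1 Schwann cell and 1 fat cell marker passed the test. They were the only 2 of the 12363 genes measured to pass (0.0162%). Fewer cells of a type and less RNA per cell cannot be told apart in such pieces of tissue. Of 14 Schwann cell markers on the array 12 were measured, all 12 with a difference above 0, against 6354 of 12363 genes, and 11 of 12 with the synaptic arrays on top, against 10.6% of all genes. Their median was 0.72. Their summed intensity was 114778 and 126397 on the synaptic arrays and 37567 and 38910 on the non-synaptic arrays, with Pmp22 as the largest term on every array. The myelin gene Mbp differed by 3.50 ± 0.17 and passed (limma adjusted p = 0.0326), while Ncmap at 3.54 ± 0.26 did not (limma adjusted p = 0.0963). None of the 14 was at the floor on all arrays. Of the 12 measured, Ncmap and Egr2 had non-synaptic means of 8.65 and 8.44, below the level that the filter asks for. They counted as measured only through their synaptic arrays, so their place among the 12 is not independent of their direction. The 3 measured perineurium markers had a median of 0.43, with 2 apart and higher, against 10.6% of all genes. Below the filter, Cldn1 was also apart and higher, at 9.38 and 10.31 against the floor and 8.41. Efnb3, below it too, overlapped, and Lypd2 was at the floor on all arrays. Fibroblast markers other than collagens had a median of -0.23, with 9 of 10 below 0, against 6009 of 12363 genes, 4 of 10 with the synaptic arrays below both others, against 9.85% of all genes, and sums of 202536 and 219693 against 212291 and 229973. The 6 measured fat cell markers had a median of -1.41. It was carried by Adipoq, the hormone adiponectin, at -5.43 ± 0.26, which passed (limma adjusted p = 0.0326), by Pck1 at -4.16 and by Retn at -2.57, while Fabp4, Pparg and Lpl lay between -0.26 and 0.05. Both synaptic arrays of Pck1 were at the floor, and those of Adipoq read 7.54 and 7.56, close to it. The synaptic means of Adipoq (7.55), Pck1 (7.31) and Retn (8.61) lay below the level that the filter asks for. These genes thus counted as measured only through their non-synaptic arrays, and the median of -1.41 depends on their inclusion. With the floor raised to 469 the fold fell from 43.2 to 17.3 for Adipoq and from 17.9 to 6.08 for Pck1. Medians were 0.20 for 6 tendon and -0.16 for 8 mesothelial markers, with 0 apart in either list. They were -0.19 for 9 endothelial markers, with 1 apart in each direction, and -0.12 for 7 smooth muscle and pericyte markers, with 3 apart and lower. Over all genes 10.6% were apart and higher and 9.85% apart and lower. The part of these cells in the values of Col19a1, Col20a1, Col23a1 and the other collagen genes was not tested.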

How the data were processed

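Transcript levels were read from 4 one-colour arrays, 2 per region. The authors deposited 1 intensity per probe set on a linear scale. The trimmed mean (2% at each end) was 2500 on each array, so the deposited scaling was kept; its method, like that of the summary, is not given in the sources used here. It hides a change shared by most transcripts. Intensities below 158.891, the 20th percentile of the deposited values, were raised to that floor and log2 was taken. A mean log2 of at least 8.87 (40th percentile of all values) was asked for, and 64 control probe sets were left out, which gave 26480 for the test. Differences against a region at the floor are lower bounds. The filter is on the mean over all arrays, so a gene can pass it through its higher region alone.

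Symbols came from the platform annotation, updated by Entrez identifier with RefSeq tables of GRCm38.p6 (34754 of 34958 single-gene probe sets matched). A gene was read from its probe set with the highest mean. The test was limma (version 3.58.1, R 4.3.3; lmFit, eBayes with an intensity trend, 2-sided, Benjamini-Hochberg over all probe sets tested, threshold 0.05), with 2 residual and 3.16 prior degrees of freedom. Intervals cover 95%. An exact permutation test of 2 against 2 arrays cannot go below 0.333. The number of arrays limits the precision. Alternatives changed the scaling, floor, filter, variance prior, block, arrays kept and probe set rule, 1 at a time except for the block without a filter. Members and lists were chosen with earlier results of these data known. Values on every array are given for the basement membrane and membrane-spanning genes and Col22a1, and in other classes for genes among the 3 smallest p or 2 highest means, some of which are given by their difference only. Of each other list up to 2 with the smallest p are named, and Colq. Names outside this rule were chosen after their values were seen, among them Col19a1, Col5a3 and the genes at the floor.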

Additional observations from a re-analysis of the deposited data

How the results depend on the processing

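Quantile normalization, no floor and a robust prior left the counts over all probe sets at 1 higher and 2 lower. Median centring gave 6 higher. The higher count was 3 with the filter at the 60th percentile and 0 with no filter, the floor at the 40th percentile, no intensity trend or the unmoderated test. The lower count was 0 in the last 4 of these. Leaving out 1 array gave 0 to 6 higher and 0 to 5 lower. The cause was not tested. With the array number as a replicate block, 56 were higher and 18 lower, though the labels do not say that the number pairs the arrays. Deviations of arrays with the same number correlated at 0.63 over 26480 probe sets, and with 2 pairs this is only a hint. With the block, 0 collagen genes passed by limma, and the lowest adjusted p was 0.149, for Col20a1. The block without a filter, chosen after seeing the data, gave Col19a1 an adjusted p of 0.833.

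The count of collagen genes past the threshold was 0 in all 15 alternatives run for it, on 24 to 42 genes. Leaving out an array gave class medians from -0.12 to 0.23 for basement membrane, -0.16 to 0.16 for fibrillar, 0.19 to 0.36 for FACIT, 0.69 to 0.88 for membrane-spanning, -0.24 to 0.25 for beaded filament, -0.21 to 0.21 for multiplexin and 0.08 to 0.31 for the others. The membrane-spanning median was 0.51 with no filter, which adds Col13a1 and Col17a1, and could not be given with the filter at the 60th percentile. Of the 32 collagen genes measured, 12 kept their sign in every setting where they were measured, and 20 changed sign in some setting. Among the 12 were Col4a3, Col4a4, Col20a1, Col23a1 and Col25a1, higher in the synaptic region, and Col11a2 and Col18a1, lower. For a gene whose regions did not overlap, leaving out 1 array cannot change the sign. Those settings are therefore no check on the sign of Col4a3, Col4a4, Col20a1, Col23a1 and Col25a1. In the same settings, run on genes of the other lists after the data were seen, Mbp and Adipoq had an adjusted p of 0.333 without non-synaptic array 1 and 0.149 without non-synaptic array 2. Nearness to the floor limits the reading of Col13a1, Col19a1 and Col22a1.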
